A study of Mus musculus with 8 samples.

Results

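The Slc25 family of mitochondrial carriers was examined in the liver of mice lacking Abhd15, an alpha/beta hydrolase domain protein studied mainly in fat cells. Members were the transcript clusters, the array's unit for a gene, that carry exactly 1 gene symbol beginning with Slc25a, without Slc25a1, Slc25a13, Slc25a15, Slc25a17 and Slc25a20. The rule gave 41 genes, each with 1 cluster, out of 23521 single-symbol clusters and 41345 clusters in all. The groups were 3 wild-type (WT) and 5 Abhd15 knockout (KO) livers, 1 array each, from male mice on the C57BL/6J background that were fed normal chow. The design text gives an age of 14 weeks; the animals were fasted overnight and ate again for 1 hour before the liver was frozen, and these conditions were shared by both groups. The sample labels instead put both groups on this diet for at most 14 weeks and name the allele only as Abhd15 KO. Each sample is described as coming from a mouse, but no list of animals is given, and p-values here cover only the spread among the 8 samples.

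Slc25 proteins sit mostly in the inner mitochondrial membrane and exchange metabolites, nucleotides, cofactors and inorganic ions between the cytosol and the matrix. In hepatocytes they link the matrix to gluconeogenesis, the urea cycle, lipid synthesis and the transfer of reducing equivalents, and they bring in the iron and cofactors that matrix enzymes need. Many come as closely related isoforms that carry the same substrates in different tissues or under different signals, such as cytosolic calcium for the ATP-Mg/phosphate carriers.

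Values were deposited on the log2 scale, so a difference of 1 is 2-fold. Differences are KO minus WT. Values of different clusters come from different probes and were not set against each other. No detection calls were given. The array medians over all clusters lay between 2.99 and 3.05, and 17 members with a mean under 5 are called dim here because a signal above background is not shown for them. The other 24 had a mean of at least 5, a limit that does not show such a signal either. Abhd15, the gene knocked out, had a KO mean of 5.12, above this limit. KO arrays 1 and 2 stood apart on the first principal component (18.0% of the variance), scoring 55.2 and 50.8, while the third highest array scored 0.22. Abhd15 itself had a mean of 5.64 ± 0.18 in WT (SD, n = 3) and of 5.12 ± 0.08 in KO (SD, n = 5), with every KO array below every WT array (exact permutation p = 0.0179). The 9 measured hepatocyte markers had means over all arrays from 4.14 for Ass1, which is dim by the limit used here, to 13.1 for Alb, and all but Ass1 were at 8.87 or above.

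Slc25a25 is shown first because it had the smallest p among the 41 members, followed by Slc25a10 and Slc25a28. The 250 bases before annotated transcript starts are given from RefSeq sequence of the GRCm38.p6 assembly, on the strand of the gene. The cAMP response element TGACGTCA and the CCAAT box, either on either strand, are in capitals. Slc25a25 has 3 annotated starts in the table, of which the most upstream and the most downstream are shown, and Slc25a36 is shown as the other member with the response element. The windows lie at chr2:32451471-32451720 (minus strand, upstream start of Slc25a25), chr2:32424067-32424316 (minus strand, downstream start of Slc25a25), chr11:120491587-120491836 (plus strand, Slc25a10), chr19:43674882-43675131 (minus strand, Slc25a28) and chr9:97111042-97111291 (minus strand, Slc25a36).
Slc25a25 upstream start: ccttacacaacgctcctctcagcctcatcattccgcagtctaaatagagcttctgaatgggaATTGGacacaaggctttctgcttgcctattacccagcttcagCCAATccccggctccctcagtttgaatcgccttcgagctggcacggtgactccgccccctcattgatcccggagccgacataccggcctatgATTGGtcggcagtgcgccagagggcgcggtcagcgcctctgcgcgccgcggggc
Slc25a25 downstream start: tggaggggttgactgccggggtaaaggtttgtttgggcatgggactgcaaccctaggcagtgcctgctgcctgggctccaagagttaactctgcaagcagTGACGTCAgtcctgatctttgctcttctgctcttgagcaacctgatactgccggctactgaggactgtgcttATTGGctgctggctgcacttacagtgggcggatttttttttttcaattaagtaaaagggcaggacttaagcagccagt
Slc25a10: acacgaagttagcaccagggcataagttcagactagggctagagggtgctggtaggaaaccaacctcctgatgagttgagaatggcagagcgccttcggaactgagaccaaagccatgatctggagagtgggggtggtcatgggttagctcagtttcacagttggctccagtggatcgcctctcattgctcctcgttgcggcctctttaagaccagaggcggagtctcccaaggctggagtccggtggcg
Slc25a28: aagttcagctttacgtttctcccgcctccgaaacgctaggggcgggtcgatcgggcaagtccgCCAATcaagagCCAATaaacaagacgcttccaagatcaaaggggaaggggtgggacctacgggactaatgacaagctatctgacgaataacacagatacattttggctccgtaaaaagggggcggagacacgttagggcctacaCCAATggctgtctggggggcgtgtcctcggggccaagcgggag
Slc25a36: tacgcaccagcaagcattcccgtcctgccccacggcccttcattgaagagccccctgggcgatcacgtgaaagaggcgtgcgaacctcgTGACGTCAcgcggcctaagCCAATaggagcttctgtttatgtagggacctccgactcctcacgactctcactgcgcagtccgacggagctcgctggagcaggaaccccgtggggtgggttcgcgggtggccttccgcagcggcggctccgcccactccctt

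The element TGACGTCA lies 150 to 143 bases before the downstream start of Slc25a25 and 161 to 154 bases before the start of Slc25a36. It was found in 1 window of each of these 2 genes, or 5.0% of the 40 windows of the 31 members that have one, against 1.55% of all 32851 windows of the same length. The CCAAT box was found in 15 of the 31 members, in 45.0% of their 40 windows against 33.8% of all windows. The E-box CACGTG, searched in the same way, was found in 4 members, Slc25a14, Slc25a31, Slc25a33 and Slc25a36, in 12.5% of the 40 member windows against 6.02% of all windows. The window of Slc25a10 held none of the 3 motifs. A match describes letters only, and the motifs were chosen with the values known.

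Across the family no member passed the adjusted threshold of 0.05 in the fit over all single-symbol clusters, where 0 of 23521 passed (0%). In this fit with limma, the adjusted p of members, after Benjamini-Hochberg adjustment over all these clusters, ran from 0.795 to 0.9996. At an unadjusted p under 0.05 there were 5 members, which is 12.2% of 41, beside 6.08% of all clusters tested. Of them 3 were higher in KO (Slc25a25, Slc25a28 and Slc25a51) and 2 lower (Slc25a10 and Slc25a14), beside 2.75% of clusters higher and 3.32% lower. This count was 3 when any of WT arrays 1 and 3 and KO arrays 1, 2 and 4 was left out alone, and 2 when KO arrays 1 and 2 were left out together. In none of the 41 members were the WT and KO arrays fully separate, beside 4.43% of all clusters. The difference was above 0 in 28 members and below 0 in 13, beside 11659 clusters above and 11862 below among all tested. Its median was 0.08 against -0.0018 over all clusters tested. Among the 24 members with a mean of at least 5, 4 had an unadjusted p under 0.05 (16.7%), beside 5.69% of clusters at such means. Of these 24, 17 were higher and 7 lower, beside 3086 higher and 4613 lower of the clusters at such means. In bulk liver, fewer cells of a type and less RNA per cell cannot be told apart.

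The precision differed between members. The 95% interval of the difference stayed within -1 and 1, a 2-fold change either way, in 37 of 41 members, and within -0.5 and 0.5 in 15. The 4 whose interval reached past 1 or -1 were Slc25a25, Slc25a51, Slc25a41 and Slc25a14. Leaving out any 1 array in turn moved the difference by over 1.5 times or turned its sign in 33 of the 41 members, and the sign turned in 18. The 8 members not moved this far were Slc25a25, Slc25a10, Slc25a11, Slc25a28, Slc25a51, Slc25a4, Slc25a5 and Slc25a44.

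**Figure D1:**
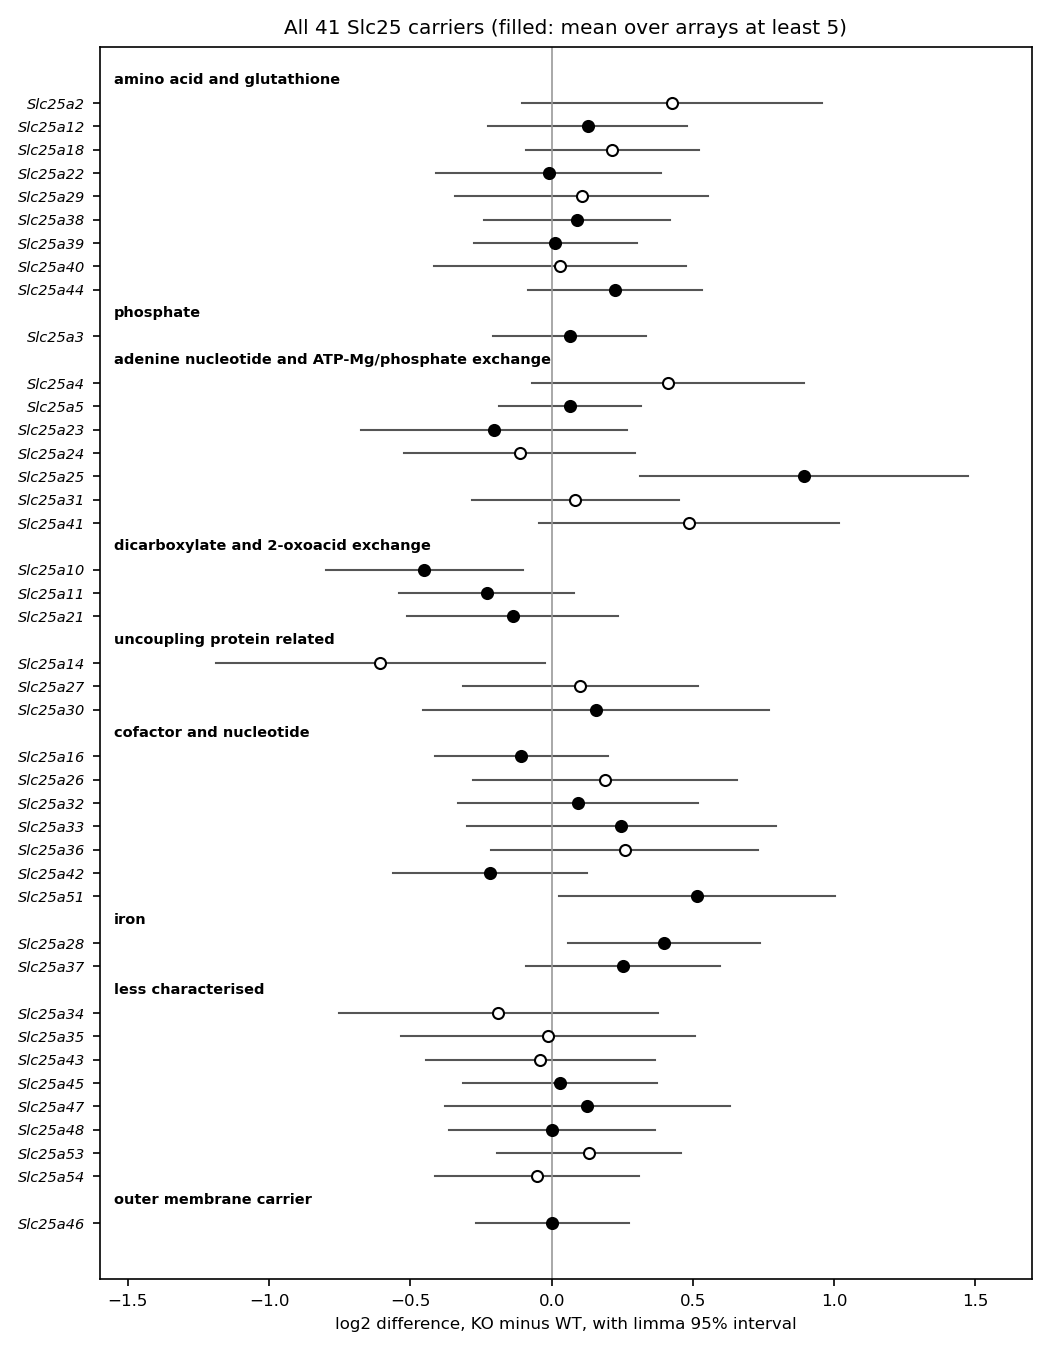
Log2 difference (KO minus WT, horizontal axis) of each of the 41 carriers with limma's 95% interval, arranged by role; filled points are members with a mean of at least 5 over all arrays and open points are dimmer ones. Slc25a25, Slc25a28 and Slc25a51 have intervals wholly above 0, Slc25a10 and Slc25a14 wholly below it, and all other intervals include 0.

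The ATP-Mg/phosphate carriers set the adenine nucleotide content of the matrix, and Slc25a25 among them had the smallest p of the family. Slc25a25 is a calcium-regulated isoform known to be induced by hormones and stress. It read 6.69, 6.46 and 6.29 in the WT arrays and 7.78, 7.92, 7.13, 7.38 and 6.66 in KO arrays 1 to 5. KO arrays 1 to 4 lay above every WT array, while KO array 5 lay within the WT range. The WT mean was 6.48 ± 0.20 (SD, n = 3) and the KO mean 7.37 ± 0.51 (SD, n = 5), giving a log2 difference of 0.89 (SE 0.26, 95% interval 0.31 to 1.47), or 1.86-fold. Its adjusted p was 0.795 with limma, its unadjusted p was 0.00636, and the exact permutation p was 0.0714.

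KO arrays 1 and 2 were also the arrays with high immediate early genes, a class switched on quickly by hormones and stress. The mean of the 24 measured genes of that list was 6.20 and 6.14 in KO arrays 1 and 2, 4.90 to 5.10 in the other KO arrays and 4.82 to 4.97 in WT. In that list 21 genes were higher and 3 lower in the KO mean. At an unadjusted p under 0.05, 5 were higher, beside 2.75% of all clusters tested, and 0 passed the adjusted threshold with limma. These 5 were Atf3 (log2 difference 0.85), Klf4 (0.45), Jun (0.79), Jund (0.38) and Dusp1 (1.05), of which all but Klf4 read higher in KO arrays 1 and 2 than in KO arrays 4 and 5. For 3 of the 24 genes, Jund, Dusp1 and Ier3, every KO array lay above every WT array, beside 4.43% of all clusters with separate groups. Without KO arrays 1 and 2 the difference of Slc25a25 was 0.57 (unadjusted p = 0.0252), with KO arrays 3 and 4 still above every WT array. Of the immediate early genes, 20 have a promoter window, with 24 windows in all, and 2 of these genes, Btg2 and Dusp1, hold TGACGTCA. The element is in 1.55% of all windows, and a share per gene over all genes was not computed. What part the state of these 2 livers has in the Slc25a25 difference was not tested.

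**Figure D2:**
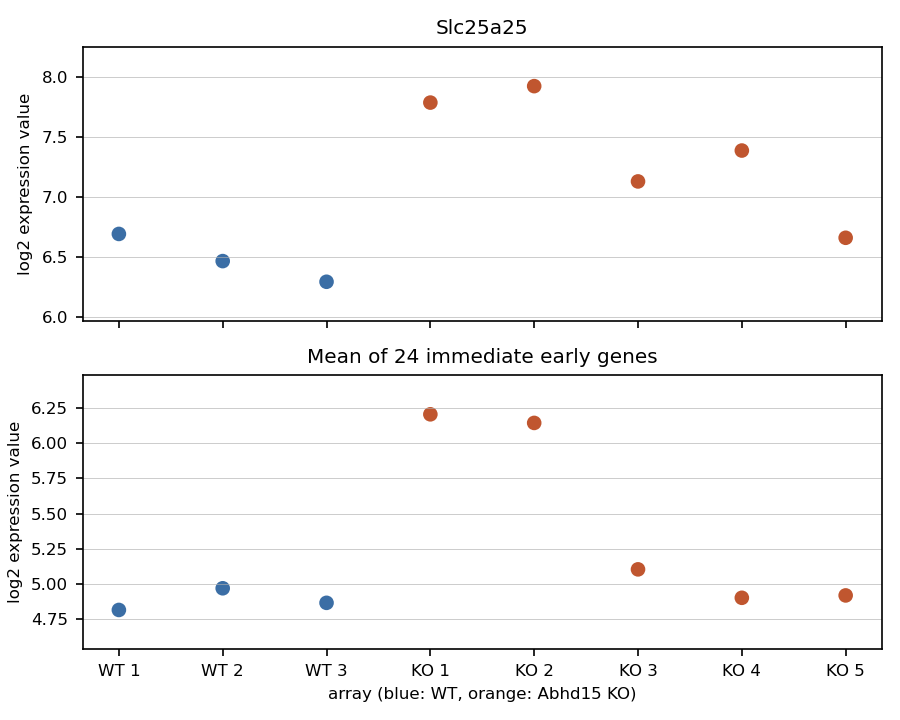
Log2 expression value of Slc25a25 (upper panel) and the mean log2 value of 24 immediate early genes (lower panel) on each of the 8 arrays, WT in blue and Abhd15 KO in orange. KO arrays 1 and 2 are the highest in both panels, and KO arrays 3 and 4 are above all WT arrays for Slc25a25. The early gene mean is 5.10 on KO array 3, above all WT arrays (4.82 to 4.97), and 4.90 on KO array 4, within the WT range.

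Of the 3 other ATP-Mg/phosphate carriers, 1 had a mean of at least 5. This was Slc25a23, a calcium-regulated isoform, which read 9.10, 9.62 and 9.64 in WT and 9.44, 9.69, 9.26, 9.04 and 8.82 in KO. The groups overlapped, with KO arrays 4 and 5 below all WT arrays and KO array 2 above them. Its log2 difference was -0.20 (SE 0.21, 95% interval -0.67 to 0.27), which was -0.38 without WT array 1, -0.10 without KO array 5, -0.12 without WT array 2, -0.11 without WT array 3 and -0.41 without KO arrays 1 and 2. Slc25a41, an isoform without the calcium-binding domain, was dim, at 2.52, 1.77 and 2.15 in WT and 2.53, 3.02, 2.24, 3.08 and 2.31 in KO, and its difference of 0.49 (SE 0.24) was 0.30 without WT array 2. Slc25a24, also dim, had a difference of -0.11 (SE 0.18).

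The ADP/ATP translocases exchange cytosolic ADP for matrix ATP. Slc25a5, the isoform known from liver and dividing cells, read 10.78, 10.76 and 10.78 in WT and 10.87, 10.76, 10.81, 10.86 and 10.88 in KO. KO arrays 1, 3, 4 and 5 lay just above the WT arrays and KO array 2 just below them. The log2 difference was 0.06 (SE 0.11), with a 95% interval from -0.19 to 0.31 (limma adjusted p = 0.954, exact permutation p = 0.107). Slc25a4, the heart and muscle isoform, was dim and read 3.97, 3.73 and 4.18 in WT against 4.61, 4.22, 4.86, 4.31 and 3.85 in KO, a difference of 0.41 (SE 0.22). Every KO array except array 5 lay above the WT arrays, and the exact permutation p was 0.143. Of 7 measured skeletal muscle markers, all at means of 3.76 or below, 5 were lower and 2 higher in KO. Ckm at -0.54 and Actn3 at 0.33 were the 2 with an unadjusted p under 0.05 with limma, beside 6.08% of all clusters tested. For Ckm alone of the 7, every KO array lay below every WT array, beside 4.43% of all clusters with separate groups. Slc25a31, the germ cell isoform, was dim with a difference of 0.08 (SE 0.17). Slc25a3, which brings in the phosphate used with ADP by ATP synthase, lay between 8.23 and 8.50 over all arrays with a difference of 0.06 (95% interval -0.21 to 0.33).

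All 3 carriers of dicarboxylates and 2-oxoacids had lower means in KO, also under both rescalings of the arrays, though for Slc25a21 the sign turned without WT array 3. Slc25a10, the dicarboxylate carrier that exchanges malate or succinate for phosphate, read 7.64, 7.79 and 7.52 in WT and 7.15, 7.04, 7.11, 7.09 and 7.61 in KO. KO arrays 1 to 4 lay close together and below every WT array, and KO array 5 lay inside the WT range. The means were 7.65 ± 0.14 (SD, n = 3) and 7.20 ± 0.23 (SD, n = 5), a log2 difference of -0.45 (SE 0.16, 95% interval -0.80 to -0.10), or 1.37-fold. The limma adjusted p was 0.795, the unadjusted p 0.0164 and the exact permutation p 0.0536. The difference was -0.38 both when WT array 2 was left out (limma unadjusted p = 0.0697) and when KO arrays 1 and 2 were (0.0716), and the unadjusted p stayed under 0.05 in the other 14 of 16 alternatives.

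Slc25a11, the 2-oxoglutarate/malate carrier of the malate-aspartate shuttle, read 8.47, 8.35 and 8.18 in WT and 7.96, 7.99, 8.17, 8.03 and 8.34 in KO. Here too KO arrays 1 to 4 lay below every WT array and KO array 5 lay inside the WT range. KO array 3 (8.171), however, lay only just under WT array 3 (8.175). The difference was -0.23 (SE 0.14, 95% interval -0.54 to 0.08, limma adjusted p = 0.864, exact permutation p = 0.0536), and without KO arrays 1 and 2 it was -0.15. Slc25a21, the carrier of 2-oxoadipate in lysine and tryptophan breakdown, ranged from 5.96 to 6.68 with a difference of -0.14 (SE 0.17).

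Both mitoferrins, which bring iron into the matrix for heme and iron-sulphur cluster synthesis, had higher means in KO under every alternative tried. Slc25a28, the widely expressed mitoferrin, read 6.89, 7.09 and 6.96 in WT and 7.08, 7.31, 7.49, 7.33 and 7.69 in KO. KO arrays 2 to 5 lay above every WT array, and KO array 1 lay just under the highest of them. The means were 6.98 ± 0.10 (SD, n = 3) and 7.38 ± 0.22 (SD, n = 5), a log2 difference of 0.40 (SE 0.15, 95% interval 0.06 to 0.74), or 1.32-fold, with a limma adjusted p of 0.795, an unadjusted p of 0.0257 and an exact permutation p of 0.0714. Without KO arrays 1 and 2 the difference was 0.52 (unadjusted p = 0.00962, limma adjusted p = 0.807), and over all alternatives the adjusted p ran from 0.533 to 0.973. The limma unadjusted p was above 0.05 in 4 of the 16 alternatives, at 0.0840 with WT array 1 left out, 0.0646 with WT array 3 left out, 0.0516 with KO array 3 left out and 0.0916 with the replicate number as a block.

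Slc25a37, the mitoferrin known from red cell precursors, read 6.33, 6.77 and 6.36 in WT and 6.64, 6.75, 6.88, 6.90 and 6.51 in KO. The groups overlapped through WT array 2, and the difference of 0.25 (SE 0.15, 95% interval -0.09 to 0.60) was 0.39 without that array. Of 9 listed erythroid markers 3 were used, Slc4a1, Epb42 and Klf1, and their means lay at 3.43 or below with list means of 2.62 to 3.01 in WT and 2.76 to 3.08 in KO. The part of blood cells in the Slc25a37 values was not tested.

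**Figure D3:**
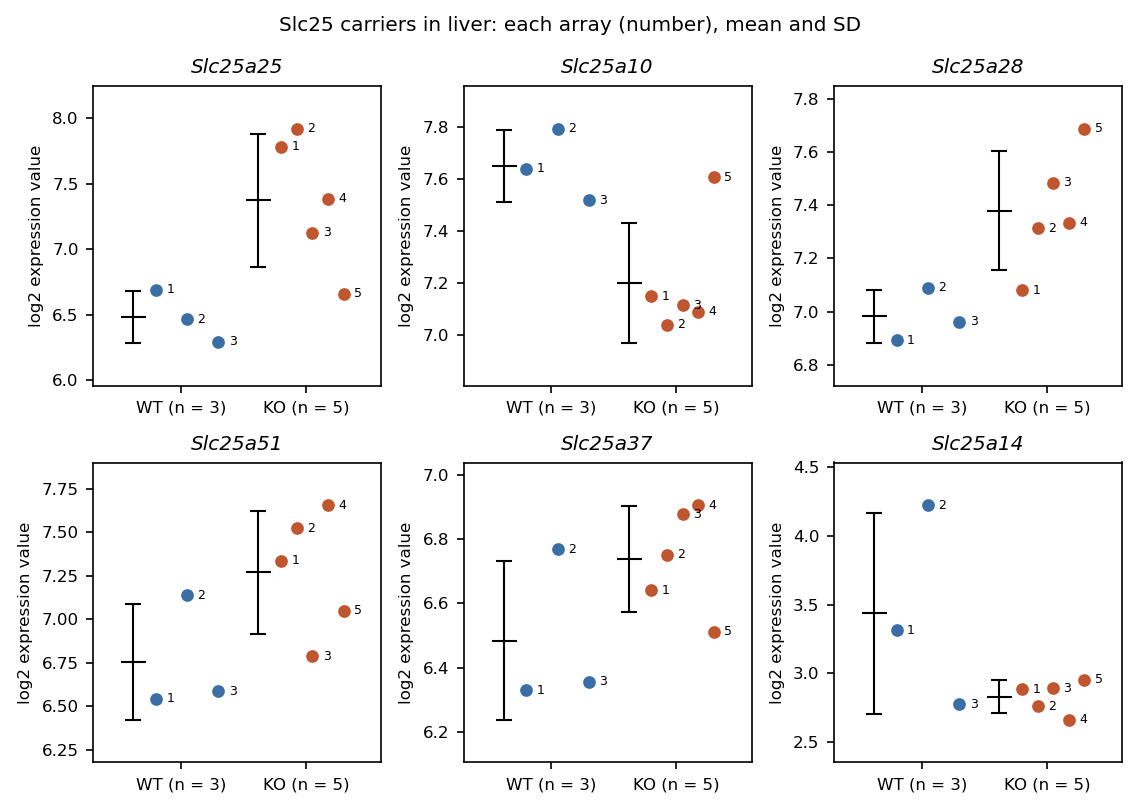
Log2 expression value of 6 carriers on each array, numbered by replicate, in WT (blue, n = 3) and Abhd15 KO (orange, n = 5) livers; the bar and whiskers to the left of the points are the mean and SD, and each vertical axis has its own range. KO array 5 sits with the WT arrays for Slc25a25 and Slc25a10 and is the highest array for Slc25a28, and the WT mean of Slc25a14 rests on WT array 2 at 4.22.

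Of 7 carriers of cofactors and nucleotides, 5 had higher and 2 lower means in KO, a split that became 3 higher and 4 lower with WT array 3 left out and also with KO arrays 1 and 2 left out. Slc25a51, the carrier that brings NAD+ into the matrix, read 6.54, 7.14 and 6.59 in WT and 7.34, 7.52, 6.79, 7.66 and 7.05 in KO. KO arrays 1, 2 and 4 lay above every WT array, and KO arrays 3 and 5 lay between WT array 2 and the other WT arrays. The means were 6.76 ± 0.33 (SD, n = 3) and 7.27 ± 0.35 (SD, n = 5), a log2 difference of 0.51 (SE 0.22, 95% interval 0.03 to 1.00), or 1.43-fold. The limma adjusted p was 0.816, the unadjusted p 0.0408 and the exact permutation p 0.107. Over all alternatives the difference lay between 0.41 and 0.71, and the limma unadjusted p was under 0.05 in 8 of 16. It was 0.145 with WT array 1 left out, 0.131 with WT array 3 left out and 0.147 with KO arrays 1 and 2 left out.

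The pyrimidine nucleotide carriers Slc25a33 and Slc25a36 had differences of 0.25 (SE 0.25) and 0.26 (SE 0.21), which lay at 0.10 to 0.40 and 0.13 to 0.37 over single omissions. Slc25a33, known to be induced by insulin and growth signals, read from 5.62 to 6.21 in WT and from 5.65 to 6.74 in KO, and its highest values were on KO arrays 1 and 2. Slc25a36, which shares the response element with Slc25a25, was dim at 3.50 to 3.98 in WT and 3.58 to 4.44 in KO. Slc25a42, which brings in coenzyme A, had a difference of -0.22 (SE 0.15), or -0.12 with WT array 1 left out, and Slc25a16, also linked to coenzyme A, one of -0.11 (SE 0.14), or -0.02 with WT array 2 left out. Slc25a32, the folate and FAD carrier, had a difference of 0.09 (SE 0.19), which was 0.24 with WT array 1 left out and -0.13 with WT array 3 left out. The dim Slc25a26, the carrier of S-adenosylmethionine, had one of 0.19 (SE 0.21), which was 0.43 with WT array 2 left out and -0.03 with WT array 3 left out.

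None of the 9 carriers of amino acids and glutathione had an unadjusted p under 0.05, and 0 passed the adjusted threshold with limma. Slc25a22, a glutamate carrier, read 9.48, 9.51 and 9.04 in WT and 9.51, 9.10, 9.50, 9.02 and 9.53 in KO. Each group held arrays near 9.5 and near 9.0, and the difference was -0.01 (95% interval -0.41 to 0.39), with a sign that turned in 7 alternatives. Slc25a39, a glutathione carrier, read 9.80, 9.72 and 9.55 in WT and 9.79, 9.76, 9.67, 9.51 and 9.80 in KO, a difference of 0.01 (95% interval -0.28 to 0.30), with a sign that turned in 5 alternatives. Its isoform Slc25a40 was dim, with a difference of 0.03 (SE 0.20).

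Slc25a44, the branched-chain amino acid carrier, had a difference of 0.22 (SE 0.14), with 4 of 5 KO arrays above all WT arrays. Slc25a12, an aspartate/glutamate carrier of the malate-aspartate shuttle, had one of 0.13 (SE 0.16), which was 0.03 with WT array 2 left out. Slc25a38, the glycine carrier of heme synthesis, had one of 0.09 (SE 0.15), which turned to -0.04 with WT array 1 left out. The dim members were Slc25a2, an ornithine carrier isoform, Slc25a18, a glutamate carrier, and Slc25a29, a carrier of basic amino acids. Slc25a2 read 2.18, 2.53 and 2.00 in WT and 2.56, 2.36, 2.54, 3.42 and 2.43 in KO. KO array 4 stood above the rest, and the difference of 0.43 (SE 0.24) was 0.24 without it. Slc25a18 had a difference of 0.22 (SE 0.14) and Slc25a29 one of 0.11 (SE 0.20), with 0.12 to 0.31 and -0.04 to 0.20 over single omissions.

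Among the relatives of the uncoupling proteins, Slc25a14 was dim and read 3.31, 4.22 and 2.78 in WT and 2.88, 2.76, 2.89, 2.66 and 2.95 in KO. WT arrays 1 and 2 lay above all KO arrays and WT array 3 lay among them. Its difference of -0.61 (SE 0.26, limma adjusted p = 0.818, exact permutation p = 0.0714) was -0.21 when WT array 2 was left out and -0.94 when WT array 3 was, and its unadjusted p was under 0.05 in 5 of 15 alternatives. Slc25a27, dim as well, had a difference of 0.10 (SE 0.19). Slc25a30 had one of 0.16 (SE 0.28), with the WT arrays spread over 7.04 to 8.15 and the KO arrays over 7.24 to 8.10. It was 0.51 (limma unadjusted p = 0.0619) with WT array 1 left out, 0.01 with WT array 2 left out and -0.05 with WT array 3 left out.

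Slc25a47, a carrier known for its near restriction to liver, read 10.96, 10.33 and 9.98 in WT and 10.38, 10.55, 10.34, 10.46 and 11.00 in KO. WT array 1 and KO array 5 were the highest and WT array 3 the lowest. The difference was 0.13 (SE 0.23, 95% interval -0.38 to 0.63), 0.39 without WT array 1, 0.01 without KO array 5, 0.08 without WT array 2 and -0.10 without WT array 3. The other 7 less characterised carriers had differences between -0.19 (Slc25a34) and 0.13 (Slc25a53). Of these, Slc25a45 and Slc25a48 had a mean of at least 5, with differences of 0.03 (SE 0.16) and 0.0015 (SE 0.17), while Slc25a35 (-0.01), Slc25a43 (-0.04) and Slc25a54 (-0.05) were dim, as were Slc25a34 and Slc25a53. Slc25a46, which acts at the outer membrane in mitochondrial dynamics, had a difference of 0.0017 (95% interval -0.27 to 0.27).

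**Figure D4:**
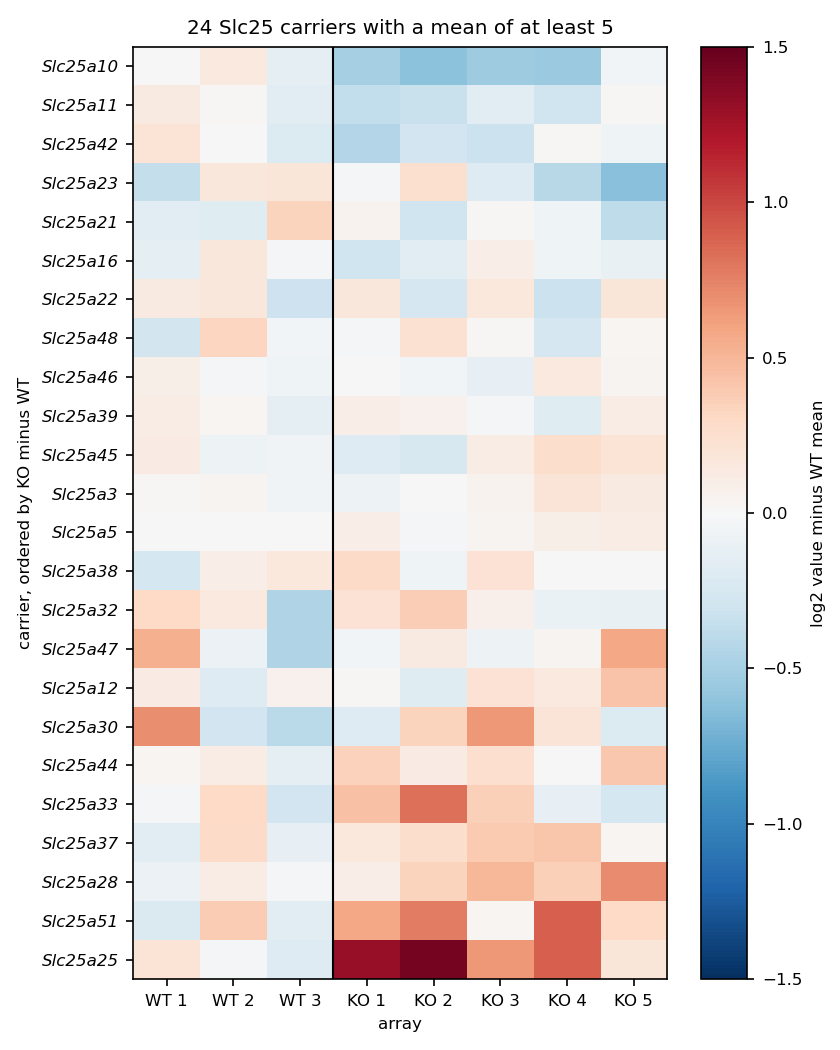
Log2 value minus the WT mean for the 24 carriers with a mean of at least 5 (rows, ordered by KO minus WT) on each of the 8 arrays (columns, WT left of the line); red is above and blue below the WT mean. Slc25a10 at the top is below the WT mean of 7.65 on all 5 KO arrays, only slightly so on KO array 5 (7.61). Slc25a11, next to it, is below its WT mean on KO arrays 1 to 4. Slc25a25 at the bottom is above its WT mean on all 5 KO arrays.

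In gene order on the RefSeq assembly, 4 pairs of members lie next to each other with no protein-coding gene between them. The pairs and their differences were Slc25a41 (0.49) with Slc25a23 (-0.20), Slc25a54 (-0.05) with Slc25a24 (-0.11), Slc25a43 (-0.04) with Slc25a5 (0.06), and Slc25a29 (0.11) with Slc25a47 (0.13). In each pair at least 1 member was dim.

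The 5 carriers left out of the set, which move citrate, aspartate, ornithine, peroxisomal cofactors and acylcarnitines, had differences of -0.17 to 0.01, 4 lower and 1 higher, with 0 at an unadjusted p under 0.05. Of 4 measured family genes with other names, Ucp1, Ucp3, Mtch1 and Mtch2, 3 were lower and 1 higher, with 0 at an unadjusted p under 0.05. Of 13 measured genes of other routes across the mitochondrial membranes, such as the pyruvate carrier, sideroflexins, porins and the calcium uniporter, 11 were lower and 2 higher, with a median of -0.10 against -0.0018 over all clusters. Of these 13 genes 11 had a mean of at least 5, and among the 7699 clusters at such means the median was -0.04 with 4613 lower. Mcu, the pore of the calcium uniporter, read 6.65, 6.72 and 6.69 in WT and 6.17, 6.58, 6.14, 6.24 and 6.45 in KO. Every KO array lay below every WT array, as in no other of the 13 genes, beside 4.43% of all clusters with separate groups. The difference was -0.37 (SE 0.14, limma adjusted p = 0.795, exact permutation p = 0.0357). Sfxn4, a dim sideroflexin, was the other gene of this list at an unadjusted p under 0.05 with limma, with a difference of -0.37 (SE 0.15). Mcu and Sfxn4 were thus 2 of 13 genes lower at such a p, beside 3.32% of all clusters tested. Of 13 genes for the import of carrier proteins 7 were higher and 6 lower, and of 11 regulators of mitochondrial gene expression 6 were higher and 5 lower. Both of these lists had 0 at an unadjusted p under 0.05 and medians of 0.0015 and 0.01, and none of the genes in these lists passed the adjusted threshold with limma. Ppargc1a, the coactivator of mitochondrial biogenesis, had a difference of 0.01 (SE 0.22).

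Markers of cell types were read beside these results. The mean log2 value of 9 measured hepatocyte markers lay between 10.60 and 10.67 in WT and between 10.41 and 10.75 in KO. It ran from 5.84 to 6.29 in WT and 5.56 to 6.61 in KO for 10 macrophage markers, from 7.30 to 7.34 and 7.27 to 7.40 for 8 sinusoidal endothelial markers, and from 6.02 to 6.22 and 5.77 to 6.23 for 9 stellate cell markers. Of the hepatocyte markers 3 were higher and 6 lower in the KO mean, of the macrophage markers 6 and 4, of the endothelial markers 3 and 5, and of the stellate markers 5 and 4. The groups did not overlap for 1 gene of each of these lists but the macrophage one, beside 4.43% of all clusters. These were Tat (hepatocyte, 0.21, exact permutation p = 0.0357), Lyve1 (endothelial, 0.65, exact permutation p = 0.0179) and Lrat (stellate, -0.34, exact permutation p = 0.0357). None of them passed the adjusted threshold with limma (adjusted p = 0.858, 0.795 and 0.795). Clec4g, also endothelial, differed by -0.26 with overlapping groups. Lists of cholangiocyte, lymphocyte, neutrophil, muscle and adipocyte markers had list means of 3.78 or below on every array. Their genes were dim except the cholangiocyte marker Sox9, with a mean of 6.84 over all arrays. They held 0 genes at an unadjusted p under 0.05 except the 2 of muscle, and of these genes only Ckm had separate groups. The part of these cells in the carriers' differences was not tested.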

How the data were processed

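RNA from 8 livers was hybridised to Affymetrix Mouse Gene 2.0 ST arrays, using 200 ng of total RNA per the labels' protocols. The authors deposited 1 table of log2 expression values. Per the submitters' processing notes RMA and oligo were used, and the design text names Expression Console, with versions and settings not given in the sources used here. In its usual form, RMA evens out arrays and compresses differences of dim clusters. The log2 scale was taken from the range of values, 0.409 to 13.27.

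Clusters were named through the platform annotation, where 23521 have 1 symbol, 1814 several and 16010 none listed. KO minus WT was fitted with limma 3.58.1 in R 4.3.3 (lmFit, eBayes, no covariates, 6 residual degrees of freedom), two-sided, and p-values were adjusted over the 23521 by Benjamini-Hochberg. The exact test permuted the difference in means over 56 splits, with a smallest p of 0.0179. The fit was tested on simulated data with planted changes larger than any carrier difference, so the recovery of changes of the carriers' size was not tested. The number of arrays limits the precision, and no batch is given.

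Named with full values were the 10 members with the smallest p, the 5 with the highest mean, and the ATP-Mg/phosphate and iron carriers with a mean of at least 5. In other lists they were up to 5 genes at an unadjusted p under 0.05. Other members are given by range or difference; genes outside the rule that are given more fully, Slc25a30 and Ppargc1a included, were chosen with their values known. Members and lists were chosen with earlier results of these data known. Alternatives were other empirical Bayes settings, a filter on dim clusters, all clusters, rescaling of arrays, array weights, a replicate block and leaving out arrays.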

Additional observations from a re-analysis of the deposited data

Results flagged for a closer look

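Chance marks about 1 in 20 groups as having an array far from the rest, and 3 of the 41 members did so among the 5 KO arrays. Slc25a10 read 7.607 on KO array 5 against 7.040 to 7.149 on the other KO arrays. Slc25a2, a dim cluster, read 3.419 on KO array 4 against 2.357 to 2.556 on the others. Slc25a18, also dim, read 3.240 on KO array 2 against 3.474 to 3.541 on the others. Groups of 3, such as WT, were not examined in this way.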

How the results depend on the processing

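The number of arrays limits every value, and dim clusters have no shown signal above background. No carrier passed the adjusted threshold under any alternative run. The count of clusters past it, 0 in the fit reported, was 3 with trend and robust settings, 1 among clusters with a mean of at least 5, 3 over all clusters named or not, and 1 with the replicate block, and stayed at 0 when any 1 array was left out. The 5 carriers at an unadjusted p under 0.05 became 3 in the fit over all clusters, 2 without KO arrays 1 and 2, and 3 to 6 when any 1 array was left out. The median difference of carriers, 0.083, was 0.046 with the replicate block and 0.029 to 0.097 with any 1 array left out. For Slc25a22 the sign turned with the replicate block (0.026), array weights (0.0077) and without KO arrays 1 and 2 (0.0083), with -0.16 to 0.073 over single omissions. For Slc25a23 it turned with the block (0.0087). For Slc25a39 it turned without KO arrays 1 and 2 (-0.034) and ranged from -0.058 to 0.067 over single omissions, and for Slc25a47 from -0.096 to 0.39. The causes were not tested. The other 11 named carriers kept their sign throughout. The sign count of 28 higher and 13 lower ranged to 23 and 18 without WT array 3. No sign was seen that replicate numbers pair the samples. The correlations of same-numbered deviations were -0.027, 0.019 and -0.0069, and those of other numbers lay between -0.022 and 0.029. This check cannot show that the samples were unpaired, and the block only uses a shared number. With 1 cluster per carrier, averaging clusters of a gene gave no other value.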

Other observations

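The spread between livers of the same group differed widely among carriers with a mean of at least 5. The within-group SD was 0.46 for Slc25a30, 0.43 for Slc25a25, 0.40 for Slc25a33 and 0.36 for Slc25a47, higher than in 95.8%, 94.9%, 93.7% and 90.9% of the 7699 clusters at such means. At the other end it was 0.042 for Slc25a5, 0.092 for Slc25a3 and 0.094 for Slc25a46, higher than in 0.273%, 7.96% and 8.57% of them. These genes were chosen after their values were seen. The median was 0.20 over 24 carriers and 0.18 over the 7699 clusters.

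Slc25a30, a carrier described from kidney, read 8.15 on WT array 1 against 7.16 and 7.04 on the other WT arrays, and 7.26, 7.79, 8.10, 7.65 and 7.24 on KO arrays 1 to 5. WT array 1 was also the highest WT array for Slc25a47 (10.96) and for the dim Slc25a34 (4.52 against 3.72 and 3.82), while Slc25a34 read 4.50 on KO array 3, where Slc25a30 was highest among KO arrays.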
